A study of Mus musculus with 6 samples.

Results

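The comparison set mouse embryonic stem cells treated with vitamin D3 and MM-401 together against untreated cells of the same line. Its members were the samples whose agent label is either "VD3 and MM-401 (Mll1i)" or "untreated", which are 4 of the 6 samples of the series, 2 in each group. The untreated cells have no time on their label. The treated cells received 1 µM of 1α,25-dihydroxyvitamin D3 (VD3) and 100 µM of MM-401 for 5 days. Every group was C57BL/6J, derived from the blastocyst, and carried the genotype Mll1fl/fl with a Cre-ER transgene, so the control cells share the floxed alleles. The labels mention no tamoxifen and do not name the promoter that drives the Cre. All cells grew with leukemia inhibitory factor on mouse embryonic fibroblast feeders, whose RNA may be part of each library. The culture label lists 15% fetal calf serum or 20% serum replacement for every sample, while both treatments are described in serum. The remaining 2 samples received VD3 alone at the same dose and time, and their values are set beside those of the other pools. No group received MM-401 alone.

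The deposited tables hold 1 pooled column per group, 2 of 3 columns being used for the comparison, so no difference has a replicate check and no p-value is given. The untreated and the doubly treated columns were matched to their groups by part of the column name only. Another meaning of those names would change every value that follows. The values are FPKM (mapped fragments scaled to transcript length and library size) with an interval that the authors deposited, and an estimated count of fragments per gene. The pools summed to 62284598 estimated counts (untreated), 73636342 (VD3) and 73499639 (both agents). For the median locus above 500 counts, the authors' standard deviation was 17.5%, 17.5% and 18.3% of the count. Where 3 FPKM values follow each other for a gene, they are those of the untreated, the VD3 and the doubly treated pool, and a range in parentheses is the authors' interval, whose level is not given. In these bulk libraries, fewer cells of a type and less RNA per cell cannot be told apart.

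The hormonally active form of vitamin D binds the vitamin D receptor (VDR), which pairs with a retinoid X receptor on DNA and recruits coactivators to target genes such as Cyp24a1. MM-401 blocks the contact of the histone methyltransferase MLL1, the product of Kmt2a, with its partner WDR5, which the enzyme needs to methylate lysine on histone H3 at promoters. Embryonic stem cells hold the pluripotent state through OCT4, SOX2 and NANOG, divide quickly, and can shift between glycolysis and mitochondrial respiration as the state changes.

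With both agents, some short transcripts of the ribosome and of the respiratory chain stood higher, while some long transcripts of cohesin, condensin, kinetochore and zinc finger genes stood lower. A gene was called where all of the following held. The difference of log2(FPKM + 1) was at least 1 in size, and the larger FPKM was at least 5. The authors' intervals did not overlap. The estimated count, as CPM (counts scaled to the pool total) with 0.5 added, also differed by at least 1 on the log2 scale in the same direction with at least 100 counts in the higher pool. By this rule, 263 of 10653 genes (2.47%) were higher and 240 (2.25%) were lower. Among protein-coding genes, 153 of 8804 (1.74%) were higher and 183 (2.08%) lower. Processed pseudogenes gave 75 of the 263 and 28 of the 240 calls. By FPKM and its intervals alone, 467 of 10966 genes (4.26%) were higher and 294 (2.68%) lower. The count part of the rule was not met for 204 of these 467 and 54 of these 294, which includes genes whose count differed less in the same direction. The median tested gene was 0.27 higher by FPKM and -0.02 by count. With FPKM centred on the median gene, the calls by both measures became 146 higher and 347 lower, so which direction held more genes depended on the scaling.

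**Figure D1:**
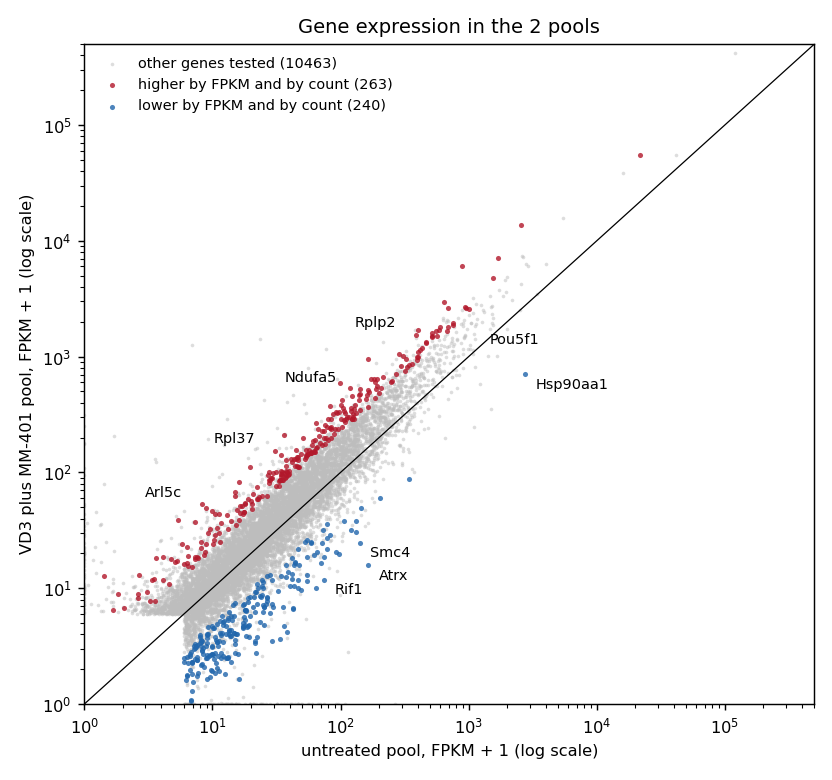
Each point is 1 of the 10966 genes that reached 5 FPKM in either of the pools, with FPKM + 1 of untreated cells on the horizontal and of doubly treated cells on the vertical log axis; the line marks equal values. The 263 red genes were higher and the 240 blue genes lower by FPKM and count, and the cloud lies above the line at high expression.

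The marker genes fitted cultured embryonic stem cells in all 3 pools. The 11 of 12 stem cell markers with a locus of their own summed to 2171 FPKM in untreated cells, 3497 with VD3 and 3308 with both agents, and 0 were called in either direction. Fibroblast markers, which feeder cells express, summed to 409, 719 and 703 FPKM over 22 measured genes, with Lum and Prrx1 at 0 in the untreated and the doubly treated pool. One of them, S100a6, was called higher, at 83.8, 213 and 287 FPKM. Macrophage and endothelial markers summed to 39.5, 44.8 and 35.8 FPKM, with Adgre1, Aif1, Tyrobp and Emcn at 0 in the pools compared. The part of feeder cells in the results was not tested.

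Respiratory complex I, which takes electrons from NADH, had the highest median difference of the 35 gene lists. Of its 44 listed genes, 41 had a locus of their own, and 12 of these 41 were called higher and 0 lower. Of all 10653 tested genes, 2.47% were called higher and 2.25% lower. The 41 differences ran from 0.45 to 1.89, with a median of 1.23 by FPKM and 0.96 by count. Over all 14193 genes with a mean of at least 1 FPKM, the medians were 0.21 and -0.01. Ndufa5, an accessory subunit of the peripheral arm (chromosome 6, 24518666 to 24528013), was at 141 FPKM in the untreated pool (89.0 to 194), 191 with VD3 (119 to 262) and 525 with both agents (309 to 742). The value with both agents lay above the others, its interval apart from both, and the difference from untreated was 1.89 by FPKM and 1.52 by count. Ndufs6, a subunit near the NADH-binding module, was at 93.1 FPKM in the untreated pool (45.1 to 141), 166 with VD3 (83.9 to 248) and 322 with both agents (158 to 485). Its treated and untreated intervals were apart, and the difference was 1.78. Ndufa2 stood at 97.2, 160.0 and 333 FPKM, Ndufb4 at 27.9, 46.5 and 88.1 FPKM and Ndufc1 at 159, 231 and 469 FPKM. The VD3 pool lay between the others for each of the 5 genes. The assembly factor Ndufaf4 had the smallest difference of the list, at 17.2, 18.3 and 23.9 FPKM, with a count difference of -0.12.

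Subunits of the later complexes, which pass electrons to oxygen and make ATP, followed the same pattern, with 11 of 47 tested genes called higher and 0 lower. The shares over all tested genes were 2.47% and 2.25%. The median of 50 members was 1.10 by FPKM and 0.84 by count. Atp5k, the e subunit of ATP synthase (chromosome 5, 108433244 to 108434448), was at 173 FPKM in the untreated pool (114 to 232), 319 with VD3 (213 to 424) and 639 with both agents (389 to 889). All 3 values were in ascending order, and the treated interval cleared the untreated one at a difference of 1.88. Atp5e, the epsilon subunit, was at 304, 502 and 1017 FPKM, and Uqcrq, of complex III, at 516, 868 and 1466 FPKM. Cox6b1, of cytochrome c oxidase, was at 948, 1561 and 2610.1 FPKM. Pet100, an assembly factor of the same oxidase, was at 39.9, 50.6 and 130.3 FPKM. Chchd2, a mitochondrial protein that supports the oxidase and is also found in the nucleus, was at 286 FPKM in the untreated pool (159.6 to 413), 530.1 with VD3 (305 to 755) and 1052 with both agents (496 to 1609). By contrast the longer catalytic subunits Atp5b and Atp5a1 had overlapping intervals, at 1991, 3179 and 4872 FPKM and 931, 1492 and 1532 FPKM, and count differences of 0.33 and 0.38. The mitochondrially encoded subunits had no values in the tables and were not analysed here.

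Some ribosomal protein genes were called higher as well. Of 77 tested proteins of the cytosolic ribosome, 11 were called higher and 0 lower, with a median of 0.92 by FPKM and 0.63 by count over 78 genes. The shares over all tested genes were 2.47% and 2.25%. In the shortest decile of protein-coding genes, 104 of 882 were called higher. Rplp1 and Rplp2, which form the acidic stalk of the large subunit, were at 1541, 2537 and 4801 FPKM and 389, 792 and 1546 FPKM. Rpl37, also of the large subunit (chromosome 15, 5116645 to 5119140), was at 29.7 FPKM in the untreated pool (19.23 to 40.2), 43.6 with VD3 (28.7 to 58.5) and 153 with both agents (90.7 to 216). For all 3 genes the doubly treated pool was highest and its interval was apart from that of untreated cells. Rpl39 was at 107, 220.2 and 326 FPKM, Rps20 at 518, 856 and 1612 FPKM and Rps21, the one of these with its highest value in the VD3 pool, at 163, 565 and 511 FPKM. These genes have many processed copies in the mouse genome that can take their reads, so their values are uncertain. Rpl23a and Rps13, chosen after their values were seen, had intervals apart in the lower direction, at 59.8, 57.7 and 11.9 FPKM and 19.3, 3.26 and 5.16 FPKM, while their counts differed by 0.93 and 0.92. FPKM and count thus had opposite signs for both genes.

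Mitochondrial ribosomal proteins, which translate the few proteins encoded in that organelle, had 10 of 74 tested genes called higher and 0 lower. Of all tested genes, 2.47% were called higher and 2.25% lower. Their median was 0.96 by FPKM and 0.66 by count. Mrps18c was at 99.8 FPKM in the untreated pool (56.2 to 143), 94.9 with VD3 (56.0 to 134) and 381 with both agents (148 to 613). Its VD3 value was close to the untreated one, and the doubly treated interval lay above both. Mrpl52 was at 122, 191 and 452 FPKM, Mrps21 at 192, 298 and 637 FPKM and Chchd1 at 157, 226 and 432 FPKM. Small-ribonucleoprotein genes of splicing had 3 of 41 called higher, Snrpe at 323, 404 and 944 FPKM, Lsm3 at 246, 407 and 608 FPKM and Snrpd2 at 55.2, 91.5 and 144 FPKM, with a median of 0.67 by FPKM and 0.44 by count. The proteasome list had 1 of 42, the assembly chaperone Psmg4, at 26.7, 61.2 and 100.4 FPKM, which is near the background share, although its median was 0.82 by FPKM and 0.65 by count.

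The 12 largest differences upward held genes outside the lists as well. Arl5c, a small GTPase of the ARF-like family (chromosome 11, 97989578 to 97996181), was at 7.34 FPKM in the untreated pool (3.88 to 10.8), 11.3 with VD3 (6.59 to 15.9) and 52.1 with both agents (28.9 to 75.3). Only the doubly treated interval stood apart, at a difference of 2.67 by FPKM and 2.07 by count. Pemt, the methyltransferase that makes phosphatidylcholine, was at 10.3, 18.8 and 42.4 FPKM. Chchd7, whose product is mitochondrial, was at 33.5, 60.0 and 141 FPKM and Pdcd5 at 43.8, 68.4 and 157 FPKM. Of the antioxidant list, whose called genes had smaller differences, Sod1, the cytosolic superoxide dismutase, was at 429, 881 and 1189 FPKM, and Glrx5, a mitochondrial glutaredoxin of iron-sulfur cluster assembly, at 21.2, 45.3 and 73.4 FPKM. These were the 2 of 34 tested genes of that list called higher, against 2.47% of all tested genes.

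**Figure D2:**
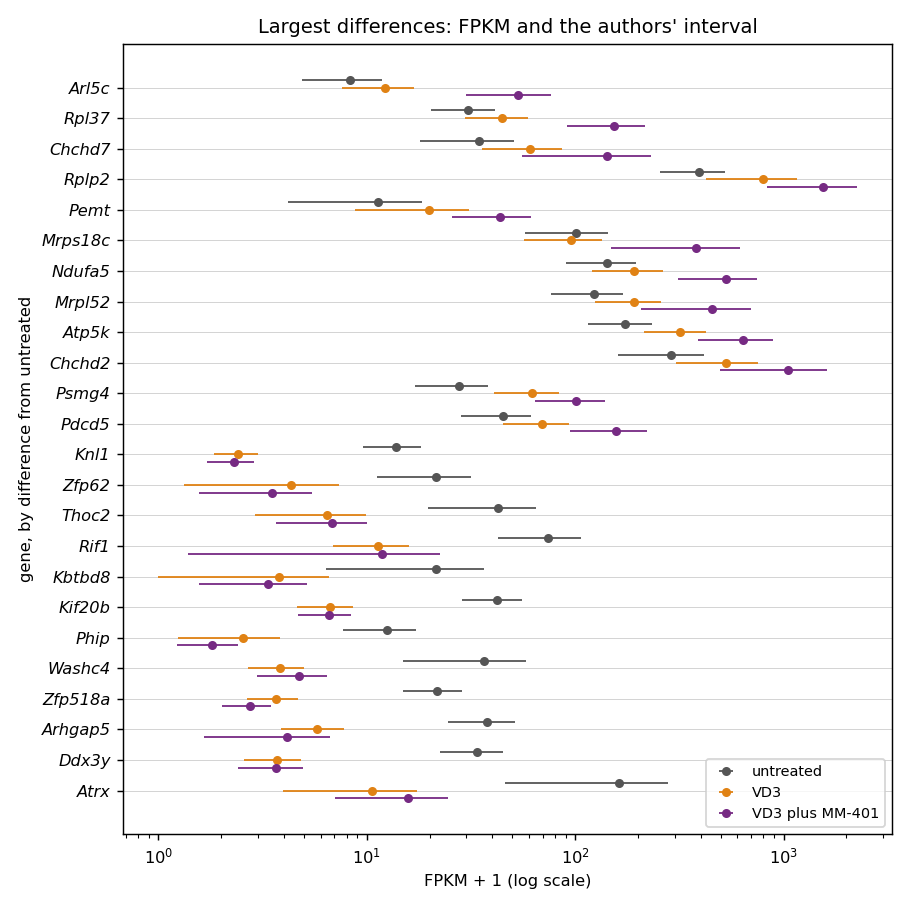
FPKM + 1 on a log axis for the 12 protein-coding genes with the largest differences in each direction, in the 3 pools; points are the authors' values and bars their deposited intervals. In the upper genes VD3 mostly lies between the other pools, while in the lower genes both treated pools lie together, as for Kif20b at 5.64 and 5.57 FPKM against 41.2.

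By both measures, a minority of the genes that hold and condense chromosomes were called lower. Of 25 members of the cohesin, condensin and SMC list, 7 were called lower and 0 higher, with a median of -0.96 by FPKM and -1.32 by count. The shares over all tested genes were 2.25% and 2.47%. By count alone, 16 of the 25 were lower and 0 higher, against 9.63% and 4.65% of 14093 genes. Smc4, the ATPase core of condensin (chromosome 3, 69004738 to 69034623), was at 139.9 FPKM in the untreated pool (48.2 to 232), 32.0 with VD3 (9.48 to 54.5) and 23.7 with both agents (13.8 to 33.5). Smc2, its partner, was at 53.8 FPKM in the untreated pool (31.5 to 76.0), 10.2 with VD3 (5.47 to 14.9) and 10.5 with both agents (5.08 to 15.9). Both treated values of each gene lay below the untreated interval, and the differences with both agents were -2.51 and -2.25. Smc5, which works in DNA repair, was at 28.0, 4.42 and 6.33 FPKM. Nipbl, which loads cohesin, was at 18.0, 2.94 and 3.72 FPKM. Pds5a, which regulates its release, was at 105, 30.2 and 37.1 FPKM. The acetyltransferases that lock cohesin on DNA, Esco1 and Esco2, were at 11.7, 1.58 and 1.49 FPKM and 91.9, 18.8 and 19.7 FPKM. The cohesin ring subunit Rad21 had overlapping intervals at 139, 122 and 94.9 FPKM, and Smc1a, another, was at 187, 134 and 339 FPKM with a count difference of -0.52. Smc3, also of the ring, stood lower at 121, 34.9 and 33.9 FPKM, and the cohesin subunit Stag2 at 37.3, 4.31 and 4.004 FPKM. The intervals of Smc3 and Stag2 overlapped as well, so neither was called. Their count differences were -1.997 and -2.97. Cdca5, the gene of sororin, stood at 73.5, 130.4 and 121 FPKM. The non-SMC subunits of condensin had no call by both measures. By FPKM their differences were 0.41 for Ncapd2, 0.45 for Ncaph, 0.39 for Ncapg, 0.47 for Ncaph2, -0.19 for Ncapd3 and -0.98 for Ncapg2. By count, Ncaph2 was the one of these above untreated, at 0.30, while Ncapg and Ncapg2 were 2-fold lower, at -1.04 and -1.53. The list's median with VD3 alone was -1.67 by FPKM against the same untreated pool.

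Kinesins and kinetochore proteins, which move and attach chromosomes, had 5 of 55 called lower and 0 higher, with a list median of 0.03 by FPKM and -0.12 by count. Of all tested genes, 2.25% were called lower and 2.47% higher. By count alone, 12 of the list were lower and 0 higher, against 9.63% and 4.65% of 14093 genes. Kif20b, a kinesin of cytokinesis, was at 41.2 FPKM in the untreated pool (27.6 to 54.9), 5.64 with VD3 (3.65 to 7.62) and 5.57 with both agents (3.69 to 7.44). Knl1, the kinetochore scaffold, was at 12.9 FPKM in the untreated pool (8.58 to 17.2), 1.42 with VD3 (0.840 to 2.01) and 1.30 with both agents (0.719 to 1.88). Both treated pools of each gene were near each other and below the untreated interval. Kif18a was at 24.4, 4.13 and 3.87 FPKM, Kif11, the bipolar spindle motor, at 58.0, 18.8 and 23.9 FPKM, and the centromere protector Sgol2a at 28.7, 6.38 and 5.96 FPKM. In the other direction, and with overlapping intervals, Birc5 was at 191, 334 and 463 FPKM, Cdc20 at 191, 395 and 411 FPKM and Cenpa at 191, 306 and 356 FPKM. Birc5, Cdc20 and Cenpa are thus mitotic genes with higher values beside lower ones. Of the centrosome list, Pcm1, the scaffold of centriolar satellites, was the 1 of 39 tested genes called, at 27.2, 4.78 and 5.06 FPKM. This is near the 2.25% of all tested genes that were called lower. The list median was -0.38 by FPKM, and by count alone 15 of its genes were lower, against 9.63% of 14093 genes.

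Among chromatin genes, Atrx, a remodeller that deposits histone H3.3 (chromosome X, 105797615 to 105929403), had the largest difference downward, at 162 FPKM in the untreated pool (44.8 to 279), 9.65 with VD3 (2.95 to 16.3) and 14.8 with both agents (6.05 to 23.5). Both treated intervals lay below the untreated one, and the difference with both agents was -3.37 by FPKM and -4.17 by count. Smarca1, of the ISWI family, was at 7.16, 2.32 and 2.42 FPKM and was the other called gene of 43 tested remodellers. Of all tested genes, 2.25% were called lower. By count alone, 0 remodellers were higher and 6 lower. Suz12, a core subunit of Polycomb repressive complex 2 (chromosome 11, 79993106 to 80034123), was at 132 FPKM in the untreated pool (46.1 to 218), 25.7 with VD3 (9.90 to 41.5) and 29.6 with both agents (15.8 to 43.5). Both treated values lay below the untreated interval, whereas its partner Eed was at 355, 307 and 311 FPKM with overlapping intervals. Ezh2, the catalytic subunit, was at 158, 160.4 and 278 FPKM and differed by -0.13 by count. Suz12 was the 1 of 29 tested Polycomb genes called, where 2.25% of all tested genes were called lower. By count alone, 0 Polycomb genes were higher and 5 lower, against 4.65% and 9.63% of 14093 genes. Of these 5, Mtf2 was at 181, 42.1 and 54.4 FPKM and Rnf2 at 143, 62.4 and 55.6 FPKM, with overlapping intervals. The list's median was -0.18 by FPKM and -0.24 by count. Dek, a chromatin-binding protein, was at 340.2, 71.0 and 87.2 FPKM, and Rif1, a factor of replication timing, at 73.4, 10.4 and 10.9 FPKM. Phip, a bromodomain protein, was at 11.5, 1.54 and 0.817 FPKM, and Thoc2, of mRNA export, at 41.5, 5.43 and 5.82 FPKM. Hsp90aa1, the inducible HSP90 chaperone, was at 2733 FPKM in the untreated pool (1501 to 3965), 1328 with VD3 (755 to 1902) and 701 with both agents (0 to 1447), while its constitutive paralog Hsp90ab1 was at 3409, 5085 and 3444 FPKM.

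Genes with a numbered Zfp symbol, most of which encode zinc finger proteins, were grouped after their values were seen. Of 205 tested, 34 (16.6%) were called lower and 1 higher, against 2.25% and 2.47% of all tested genes. Their median was -0.34 by FPKM and -0.61 by count, and -0.31 by FPKM after the median of genes of like length and GC content was taken away. Zfp518a was at 20.8 FPKM in the untreated pool (14.0 to 27.7), 2.67 with VD3 (1.66 to 3.69) and 1.75 with both agents (1.01 to 2.49) and Zfp62 at 20.4, 3.34 and 2.51 FPKM. Both were lower with either treatment. Genes of the Y chromosome, also taken up after their values were seen, included 3 called lower. Ddx3y, an RNA helicase (chromosome Y, 1260771 to 1286629), was at 32.7 FPKM in the untreated pool (21.4 to 44.1), 2.70 with VD3 (1.58 to 3.83) and 2.66 with both agents (1.40 to 3.92), Uty at 14.0, 2.75 and 2.61 FPKM and Kdm5d at 8.98, 3.50 and 3.70 FPKM. Eif2s3y, a translation initiation factor, was at 83.7, 27.2 and 44.8 FPKM and was not called. The 4 genes therefore did not share 1 size of difference, with values of -3.20, -2.06, -1.09 and -0.89.

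The genes that MM-401 and VD3 act through showed no call. Kmt2a was at 14.9 FPKM in the untreated pool (5.76 to 24.1), 11.6 with VD3 (4.69 to 18.5) and 17.0 with both agents (0 to 41.3). Its intervals overlapped, and the difference was 0.18 by FPKM but -0.53 by count. Men1, which tethers MLL1 to chromatin, was at 57.2, 90.9 and 91.3 FPKM. Wdr5, the partner that MM-401 displaces, was at 109.6, 199.98 and 142 FPKM, highest in the VD3 pool. Of 27 genes of the MLL and SET1 complexes, 0 were called by both measures, and by count alone 0 were higher and 4 lower, against 4.65% and 9.63% of 14093 genes. The list median was 0.13 by FPKM and -0.31 by count. Dpy30, a short core subunit, was at 282, 418 and 569.9 FPKM, and Aff4, of the super elongation complex, at 185, 50.8 and 68.8 FPKM, each with overlapping intervals. Of the HOX genes, which MLL1 regulates in development, 6 of 30 measured reached a mean of 1 FPKM and 0 were called. Only 1 of them, Hoxb9, had the FPKM needed for a call, so the 0 calls say little about the others. By count alone 1 was higher and 0 lower. This was Hoxa7, at 0.812, 1.37 and 2.14 FPKM, with a count difference of 1.14.

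Vdr itself was at 0.556 FPKM in the untreated pool (0.0367 to 1.08), 0.701 with VD3 (0.0857 to 1.32) and 0.370 with both agents (0.112 to 0.627), below the 5 FPKM needed for a call. Rxra, its dimer partner, was at 6.81, 14.9 and 7.08 FPKM. Cyp24a1, the enzyme that degrades the hormone, was at 0.0662, 0.129 and 0.0719 FPKM, close to nothing in each pool. Of 18 tested genes of vitamin D receptor signalling, 0 were called by both measures, and the median was -0.13 by FPKM and -0.30 by count. Spp1, which encodes osteopontin, was at 435, 424 and 499.8 FPKM, and the corepressor Ncor1 at 179, 112 and 117 FPKM. Camp, the cathelicidin peptide gene, chosen after its values were seen, had the list's largest difference upward, at 28.6 FPKM in the untreated pool (8.11 to 49.0), 50.7 with VD3 (21.5 to 79.9) and 69.4 with both agents (25.0 to 114). Its intervals overlapped, and the count difference was 1.01.

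Pluripotency genes had overlapping intervals. Of 30 tested naive genes, 0 were called by both measures, and the median was 0.11 by FPKM and -0.04 by count. Pou5f1, the gene of OCT4, was at 1114, 2053 and 1832 FPKM, with a difference of 0.72 by FPKM and 0.55 by count. Sox2 was at 157, 163 and 195 FPKM, with a difference of 0.32 by FPKM and -0.02 by count. Nanog was at 117, 141 and 155 FPKM, with 0.41 and -0.04. Utf1 was at 290.2, 416 and 531 FPKM and Zfp57 at 338, 333 and 338 FPKM. Of the formative list, Tcf15, a bHLH factor of cells leaving the naive state, was the 1 of 16 called, at 167 FPKM in the untreated pool (105 to 229), 364 with VD3 (227 to 501) and 498 with both agents (284 to 711). The treated interval lay above the untreated one. Of the 2-cell-like program, 2 of 32 measured genes reached a mean of 1 FPKM. Obox6 of that list was at 2.25, 2.57 and 0.591 FPKM and Zscan4d at 0.325, 0.154 and 0.0341 FPKM. For Obox6 the treated and untreated intervals were apart, with a count difference of -1.57, but it lay below the 5 FPKM needed for a call. Zfp809, at 34.8, 15.9 and 21.4 FPKM, had overlapping intervals and a count difference of -1.09. It was the 1 gene of the list tested by both measures, so the 0 calls say little about the program.

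Lineage, signalling and stress lists held at most 2 called genes each, where 2.47% of all 10653 tested genes were called higher and 2.25% lower. Cdx1, a Wnt target of posterior fate, was at 5.43 FPKM in the untreated pool (3.17 to 7.70), 13.1 with VD3 (8.28 to 18.0) and 17.9 with both agents (11.1 to 24.8) and was the 1 of 7 tested Wnt targets called. Phlda1, the 1 of 17 tested targets of FGF-ERK signalling called, was at 9.29, 19.9 and 25.4 FPKM. Id1, the 1 of 14 of the BMP list, was at 45.5, 119 and 128 FPKM. Nefl, a neurofilament gene and the 1 of 8 of the neuroectoderm list, was at 5.94, 19.3 and 14.4 FPKM. Each of these 4 genes was above untreated in both treated pools. Lower was Trp53inp1, the 1 of 26 tested p53 targets called, at 73.9, 9.31 and 17.7 FPKM. Hormad1 and Dazl, the 2 of 19 tested germline genes called, were also lower, at 12.9, 7.39 and 2.90 FPKM and 6.98, 1.85 and 2.94 FPKM. Pfdn6, of the prefoldin chaperone, was higher at 215, 397 and 659 FPKM. No gene was called by both measures among the tested members of the lists for trophectoderm (13), primitive endoderm (8), mesoderm (3), cholesterol biosynthesis (21), DNA methylation (20), glycolysis (27), the integrated stress response (25), interferon (11), imprinting (23) and replication histones (2). At the shares over all genes, lists this small would hold few calls. By count alone, primitive endoderm had 2 higher and 3 lower, the integrated stress response 2 and 1, and mesoderm and interferon 1 and 1 each. Imprinting had 0 and 4, DNA methylation 0 and 3 and cholesterol biosynthesis 0 and 2. Among the lists with a call, germline genes had 0 higher and 6 lower by count and p53 targets 0 and 5. Wnt targets had 3 and 0, neuroectoderm 2 and 0, FGF-ERK targets 1 and 0, the BMP list 1 and 1 and heat shock genes 2 and 2. Over 14093 genes the shares by count were 4.65% and 9.63%.

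**Figure D3:**
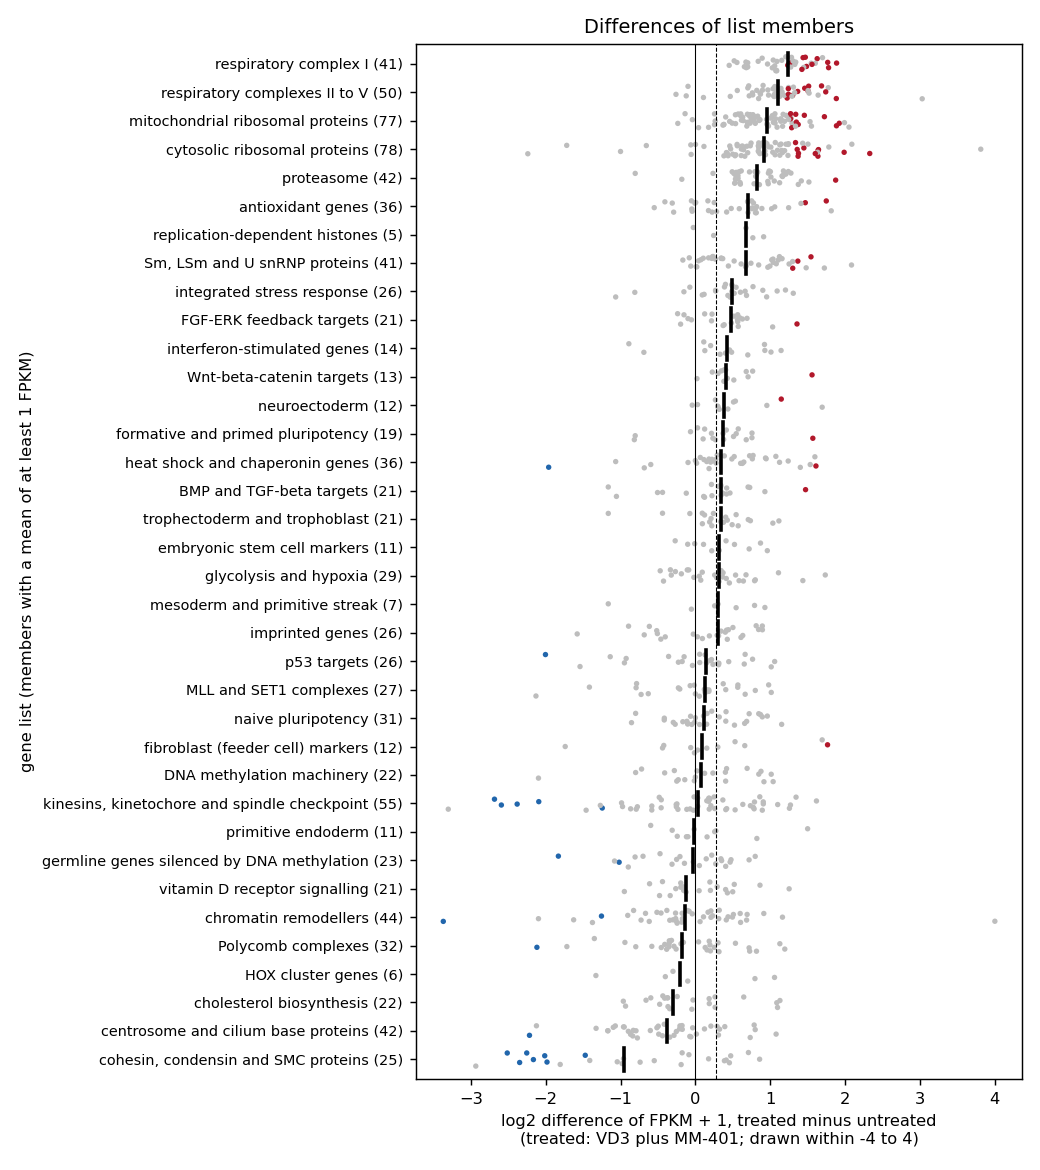
Each point is a list member with a mean of at least 1 FPKM, placed by its log2 difference of FPKM + 1 between VD3 plus MM-401 and untreated cells; red and blue points were called higher and lower, black bars are list medians, and the dashed line is the median tested gene at 0.27. Respiratory complex I is at the top with a median of 1.23 and the cohesin, condensin and SMC list at the bottom with -0.96. Arid2 lies beyond the axis and is drawn at its edge.

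The differences moved with transcript length and GC content. The called protein-coding genes that were higher had a median length of 937 bases and a GC content of 52.99%, those that were lower 4868.5 bases and 39.5%, and all tested ones 2910 bases and 50.4%. Across 8817 protein-coding genes, which share the same pools, Spearman's rho of the FPKM difference was -0.57 with length and 0.40 with GC content. By count it was -0.64 and 0.44. In the shortest decile of genes 104 of 882 were called higher, and in the decile lowest in GC content 164 of 882 were called lower. With VD3 alone the median difference of the shortest decile was 0.57 and with both agents 0.98. For the decile lowest in GC content these values were -0.97 and -0.66. Whether length and GC content account for the differences was not tested.

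**Figure D4:**
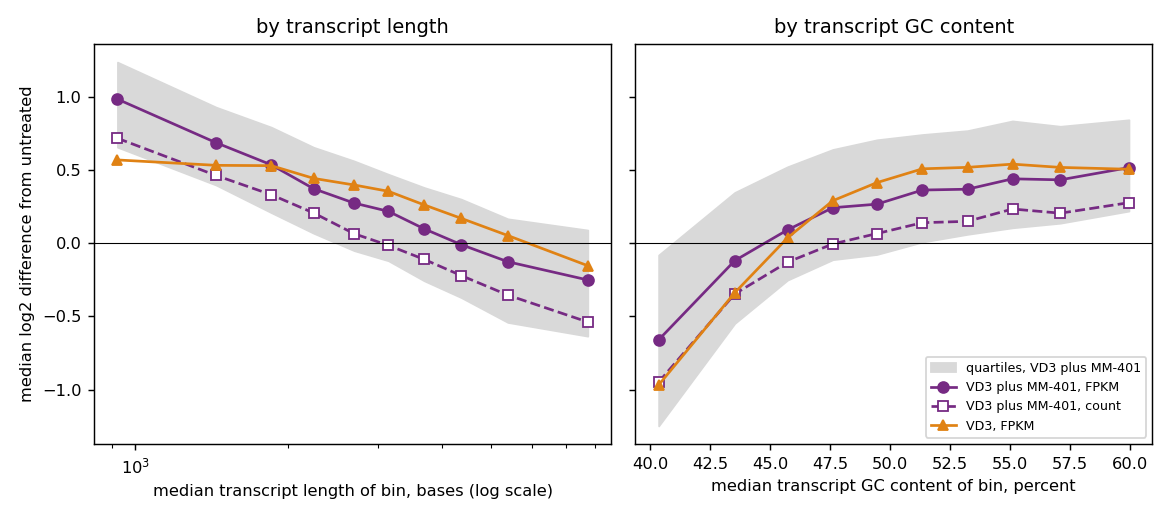
Median log2 difference from untreated cells in deciles of 8817 protein-coding genes by transcript length (left, log axis) and GC content (right), for VD3 plus MM-401 by FPKM (filled circles, quartiles shaded) and count (open squares) and for VD3 by FPKM (triangles). With both agents the FPKM median runs from 0.98 in the shortest decile to -0.25 in the longest.

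Each difference was also set against the median of genes in the same of 5 by 5 bins of length and GC content. Of the called protein-coding genes with a bin, 34 of 153 higher and 108 of 182 lower still differed 2-fold. For respiratory complex I, with a median length of 983 bases, the median became 0.46, and 35 of 41 genes were above their bin. For complexes II to V it became 0.36 (42 of 47 above) and for mitochondrial ribosomal proteins 0.33 (55 of 74 above). Cytosolic ribosomal proteins, with a median length of 882 bases, dropped to 0.11 (48 of 77 above). The cohesin, condensin and SMC list, with a median length of 4691 bases and 42.4% GC, moved to -0.23. Of the 92 named and called genes with a bin, 41 still differed 2-fold and 51 did not. The first group included 1.60 for Rpl37, 1.81 for Arl5c, -2.62 for Atrx, -2.10 for Smc4 and -1.71 for Suz12. The second included Kdm5d, from -1.09 to -0.33, Pds5a, from -1.47 to -0.72, Chchd2, from 1.88 to 0.98, and S100a6, from 1.76 to 0.87. Rps20 moved from 1.64 to 2.05, since its principal transcript is annotated at 3706 bases and it was set against long genes. Vim, the intermediate filament gene and a fibroblast marker, was at 1.19 with overlapping intervals.

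**Figure D5:**
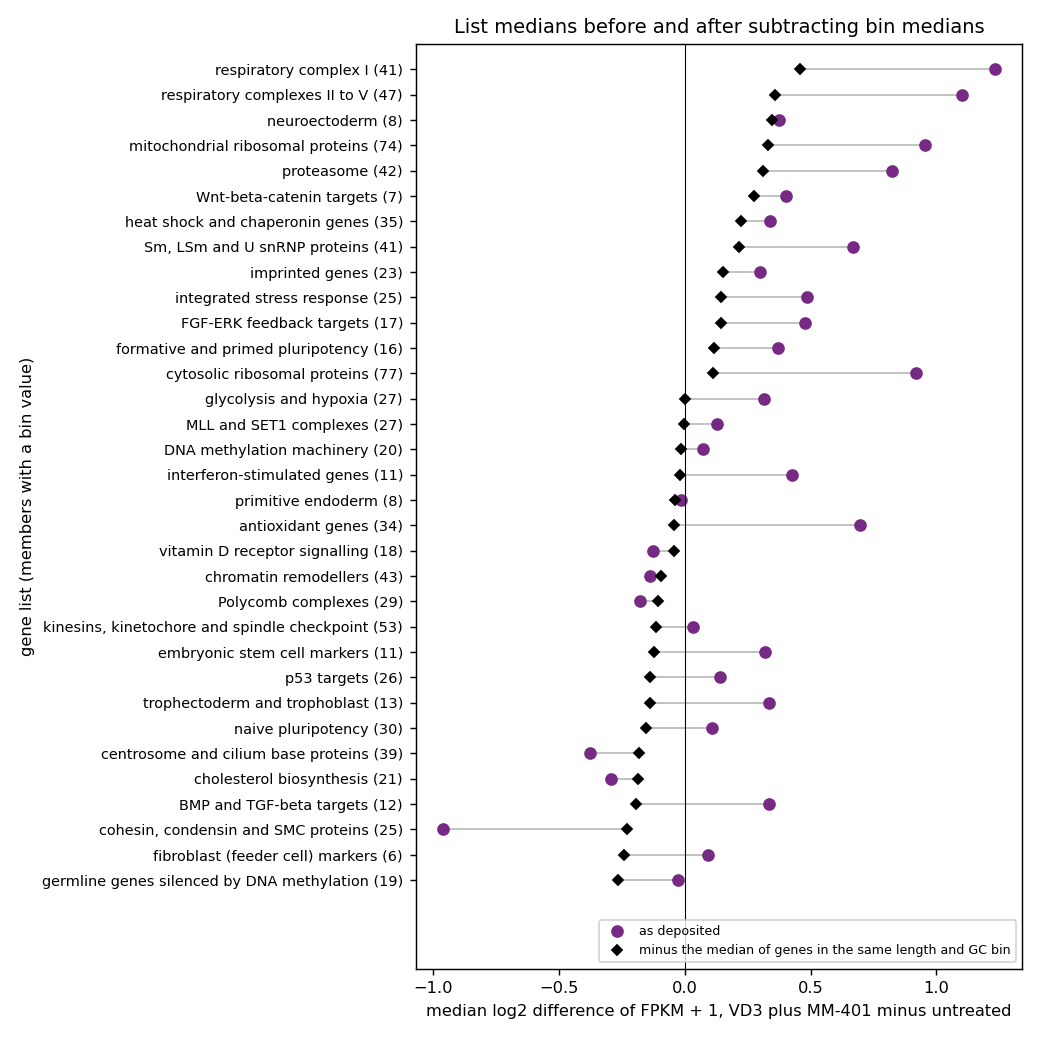
List medians of the log2 difference of FPKM + 1 between VD3 plus MM-401 and untreated cells as deposited (circles) and after the median of genes in the same length and GC bin was taken away (diamonds). Respiratory complex I moves from 1.23 to 0.46 and cytosolic ribosomal proteins from 0.92 to 0.11.

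The promoters of genes that moved together were searched for 4 motifs, on both strands, in the 250 bases before each RefSeq start (GRCm38.p6). Shown are the last 150 bases for higher genes of the ribosome and respiratory chain (Rpl37 to Mrps18c) and for lower genes (Atrx to Knl1), chosen with their matches known so that promoters with and without one appear. Matches are in capitals. For Ndufa5 the second of its 2 RefSeq starts is shown, and the same window of the other start held no match. The motifs are CCGGAAG, the core bound by ETS factors, GCGCA and GCGC with any base between them, the site of NRF1, a regulator of respiratory genes, and CCAAT, the box bound by NF-Y. The fourth was GGTCA repeated in the same direction with any 3 bases between, a strict form of the element that VDR and its partner bind.
Rpl37, chr15:5116463-5116612 (plus strand): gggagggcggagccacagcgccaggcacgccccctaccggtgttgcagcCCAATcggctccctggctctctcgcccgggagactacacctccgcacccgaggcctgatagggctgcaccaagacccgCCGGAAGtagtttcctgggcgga
Ndufa5, chr6:24527691-24527840 (minus strand): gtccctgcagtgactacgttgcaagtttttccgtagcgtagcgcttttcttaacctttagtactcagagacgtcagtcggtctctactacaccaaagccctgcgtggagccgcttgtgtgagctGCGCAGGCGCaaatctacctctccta
Ndufs6, chr13:73328483-73328632 (minus strand): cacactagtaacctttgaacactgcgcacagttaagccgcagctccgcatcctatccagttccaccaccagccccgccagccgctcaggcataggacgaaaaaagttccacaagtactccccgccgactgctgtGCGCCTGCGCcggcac
Atp5k, chr5:108434400-108434549 (minus strand): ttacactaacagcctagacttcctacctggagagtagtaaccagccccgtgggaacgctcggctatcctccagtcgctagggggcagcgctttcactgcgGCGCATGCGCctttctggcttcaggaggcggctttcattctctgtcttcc
Mrps18c, chr5:100798609-100798758 (plus strand): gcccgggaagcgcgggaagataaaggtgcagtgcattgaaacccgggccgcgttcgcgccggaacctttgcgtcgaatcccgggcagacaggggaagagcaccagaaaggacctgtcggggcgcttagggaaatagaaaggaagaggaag
Atrx, chrX:105929373-105929522 (minus strand): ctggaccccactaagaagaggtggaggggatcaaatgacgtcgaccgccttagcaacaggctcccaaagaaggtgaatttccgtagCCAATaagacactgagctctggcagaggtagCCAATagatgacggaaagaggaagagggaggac
Suz12, chr11:79992956-79993105 (plus strand): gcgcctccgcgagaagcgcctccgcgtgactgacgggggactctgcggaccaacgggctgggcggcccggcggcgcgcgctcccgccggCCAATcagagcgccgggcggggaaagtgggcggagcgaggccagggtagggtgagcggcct
Kif20b, chr19:34922208-34922357 (plus strand): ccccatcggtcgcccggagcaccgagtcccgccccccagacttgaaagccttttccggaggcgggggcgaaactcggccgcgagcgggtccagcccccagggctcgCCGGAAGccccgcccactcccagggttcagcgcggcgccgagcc
Knl1, chr2:119046969-119047118 (plus strand): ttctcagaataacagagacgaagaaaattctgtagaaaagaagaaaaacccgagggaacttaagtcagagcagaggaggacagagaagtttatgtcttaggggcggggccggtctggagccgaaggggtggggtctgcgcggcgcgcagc
Near its start Rpl37 shows an ETS core, with a CCAAT box farther out, and Ndufa5, Ndufs6 and Atp5k each show an NRF1 site. The Mrps18c window holds no match. Of the lower genes, Atrx holds CCAAT boxes, Suz12 a single one, Kif20b an ETS core and Knl1 no match. Zfp518a, also lower, holds an ETS core, and the windows of Phip, Washc4, Arhgap5 and Ddx3y hold no match. NRF1 sites lay in 8 of 38 promoters of complex I genes (21.1%), 7 of 41 of complexes II to V (17.1%), 9 of 69 of mitochondrial ribosomal proteins (13.04%) and 1 of 68 of cytosolic ones (1.47%), against 818 of 9091 promoters of all tested protein-coding genes (8.998%). ETS cores lay in 18 of 68 promoters of cytosolic ribosomal proteins (26.5%), 16 of 69 of mitochondrial ones (23.2%), 12 of 41 of complexes II to V (29.3%) and 5 of 38 of complex I (13.2%), against 15.1% of all tested. Among called genes, higher ones held NRF1 sites in 8.76% and ETS cores in 19.7% of 137 promoters, and lower ones in 12.3% and 11.7% of 162. CCAAT lay in 38.0% and 45.1%, against 35.9% of all tested promoters. The repeat of GGTCA was found in 8 of 9091 promoters, and in 0 of the 137 and 0 of the 162. Of the 153 higher and 183 lower genes, 117 and 131 had a promoter entry, and a gene may have several. A match is a run of letters and not a measured binding site.

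For some genes FPKM and count differed widely, or the interval of FPKM began at 0. Arid2, a SWI/SNF subunit, was at 22.7 FPKM in the untreated pool (7.48 to 38.0), 14.4 with VD3 (0.473 to 28.3) and 1406 with both agents (0 to 7414), while its estimated count was 13055 in untreated cells and 11371 with both agents. In Hells, a remodeller that supports DNA methylation, both measures were lower. It was at 1506 and 351 FPKM with intervals that begin at 0, and its count was 41015 and 9958. The difference was -2.10 by FPKM and -2.28 by count. Hoxb9 was at 73.3 and 28.6 FPKM with counts of 1518 and 1842. None of the 3 genes was called. The highest called FPKM belonged to processed pseudogenes and a small RNA. Gm11966 was at 21678, 26781 and 54552 FPKM, Gm14303 at 2579, 4677 and 13560.1 FPKM and Mir703 at 887, 1706 and 6115 FPKM. Their counts in the pools compared were 2749 and 6918, 3255 and 17115, and 241 and 1659.5.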

How the data were processed

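RNA of 6 samples in 3 groups of 2 was sequenced from TruSeq libraries. The submitters' processing notes name TopHat2 2.1.1, Cufflinks 2.2.1, SAMtools 1.5 and build mm10; their settings are not stated. The authors deposited FPKM with a lower and an upper bound per locus, and an estimated count with its variance, per the file headers, in 1 pooled column per group. The design foresaw a count test across libraries, which pooled columns do not allow.

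Of 62490 loci, 14 without a valid status were left out and 11771 had no gene name. Loci that share a name were summed to 49377 genes. A listed gene that shares its locus with other genes has no value. Differences are log2 ratios of FPKM + 1, which understate low genes, and of CPM, the count scaled to the pool total, with 0.5 added. Strand use is not stated, so reads of a gene and of one that overlaps it cannot be told apart. Biotype, coordinates, length and GC content of the principal transcript came from GENCODE vM21 (GRCm38), promoters from RefSeq.

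Named are the 12 largest differences in each direction among protein-coding genes with calls by both measures and at least 100 counts in each pool, the 6 called genes of highest FPKM in each direction, called list members with up to 4 others of highest mean, and a fixed group that includes Kmt2a and Vdr. Other genes were named after their values were seen. The members and lists were chosen with earlier results of these data known. The call rule was tried on simulated counts, with FPKM made from the count at a fixed scale and no trend by length or GC content. That trial cannot show how the rule treats such a trend or genes whose FPKM and count diverge. The software was Python 3.11.15, pandas 2.3.3 and numpy 2.4.6.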

Additional observations from a re-analysis of the deposited data

How the results depend on the processing

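No paired analysis was possible because each group has 1 pooled column, and for the same reason no replicate could be left out and no replicate block fitted. Centred on the median gene, 186 genes were higher by FPKM and 146 by both measures, against 467 and 263 as deposited. With a pseudocount of 5 FPKM, 146 were lower by both, against 240. Among protein-coding genes 294 were higher and 189 lower by FPKM, and 153 higher by both. With bin medians of length and GC content taken from FPKM and count, 52 were higher and 114 lower by FPKM, and 34 and 103 by both. By fold alone, without intervals, 1466 were higher and 684 lower by FPKM, and at 3-fold 146 and 189. Beyond 2 standard deviations of the count, 399 were higher by count, against 655.

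List medians that changed sign by count were naive pluripotency (-0.0399), MLL and SET1 complexes (-0.31), p53 targets (-0.0865), kinesins and kinetochore (-0.12), DNA methylation (-0.0871), stem cell markers (-0.0374), fibroblast markers (-0.0224) and macrophage and endothelial markers (-0.40). After the bin medians these were naive pluripotency (-0.15), trophectoderm (-0.14), mesoderm (-0.0730), MLL and SET1 complexes (-0.00152), BMP targets (-0.19), p53 targets (-0.14), replication histones (-0.0174), glycolysis (-0.00029), antioxidant genes (-0.0438), interferon genes (-0.0180), kinesins and kinetochore (-0.11), DNA methylation (-0.0163), stem cell markers (-0.12), fibroblast markers (-0.24) and macrophage and endothelial markers (-0.67). With a mean of at least 5 FPKM they were vitamin D receptor signalling (0.0489), Polycomb complexes (0.0417), germline genes (0.18) and primitive endoderm (0.0692). The cause was not tested. Of 92 named genes with a bin, 51 fell below 2-fold and 0 reversed. Depth limits lowly expressed genes such as Vdr and Cyp24a1, and the pools give no spread between libraries.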
